A study of Homo sapiens with 18 samples.

Results

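The comparison described here is that of CsA with vehicle after 12 h in the line HK-2, immortalized epithelium of the human proximal tubule. Its members were the 3 arrays labelled CsA at 12 h and the 3 labelled as their controls, 6 of the 18 arrays of the study, and they were chosen by treatment and time in the labels. CsA is the usual abbreviation of cyclosporin A. Control cells received the vehicle, which the labels do not name, and no dose is given. The other 12 arrays hold the same 2 treatments at 24 and 48 h. All cells were kept in medium with EGF, hydrocortisone, insulin, transferrin and selenium and were treated near confluence. Each CsA array was set against the control array with the same biological replicate number, which gave 3 pairs. The labels call the replicates biological but do not say whether they came from separate cultures. All come from a single line, and p-values measure only the spread between these samples, which may be technical.

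Cyclosporin A is an immunosuppressant that enters cells and binds cyclophilins, enzymes that turn proline bonds in proteins. Its complex with cytosolic cyclophilin inhibits calcineurin, the phosphatase that activates NFAT. PPIB is among the cyclophilins that work inside the endoplasmic reticulum (ER), where membrane and secreted proteins fold. When unfolded protein builds up there, sensors in the ER membrane start the unfolded protein response (UPR), in which factors such as XBP1 and ATF6 turn on genes for chaperones, protein import, glycosylation and transport. In the kidney the drug is known for its toxicity to tubules and vessels.

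The labelled cell type was checked against marker genes. Of 15 proximal tubule markers on the array, 4 (DPP4, SLC3A1, CDH6 and PAX8) reached 4 on the log2 scale, the level used to call a gene measured, while LRP2, CUBN, AQP1 and SLC34A1 averaged between 2.13 and 2.70 in both groups. All 5 epithelial markers (CDH1, EPCAM, KRT8, KRT18 and KRT19) reached 4, as did 3 of 11 distal nephron, 3 of 5 podocyte and 4 of 9 fibroblast markers (COL1A1, COL3A1, DCN and LUM). These are group means. In replicate 3 the epithelial CDH1 lay below 4, at 3.46 with CsA and 3.06 in control, as did the distal AQP3 at 2.74 and 2.82. Of the endothelial markers 0 of 7 did, and of the leukocyte markers 0 of 6. Replicate 3 stood apart in both groups. The SD over genes of the difference between 2 arrays was 0.226 for CsA replicates 1 and 2, and 0.73 and 0.762 for either of them against replicate 3. In control it was 0.225, 0.75 and 0.775. A measure of RNA quality, the value of the 3-prime control probe set of ACTB minus that of the 5-prime one, was lower with CsA in every pair, by -0.078, -0.069 and -0.054. That of GAPDH differed by 0.013, -0.057 and -0.016. The part of these values in the results below was not tested.

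Promoters are shown for the leading genes with a response element of the UPR, since several of the largest differences at 12 h were in genes that work in the ER. The ER stress response element (ERSE) was searched as CCAAT, any 9 bases, then CCACG, on both strands of the 250 bases before the RefSeq start (build GRCh38.p14). Of the genes ranked highest below, 3 held one. HSPA5, the main chaperone of the ER lumen, has it on the gene's own strand 66 to 48 bases before the start, in chr9:125241344-125241593 (minus strand). XBP1 has it on its own strand 52 to 34 bases before the start, in chr22:28800570-28800819 (minus strand). ERO1B, an oxidase that feeds disulfide formation, has it on the opposite strand, 243 to 225 bases before the start, in chr1:236281959-236282208 (minus strand). Each sequence reads 5′ to 3′ along the gene, ends at the base before the start, and has the element in capitals.
HSPA5: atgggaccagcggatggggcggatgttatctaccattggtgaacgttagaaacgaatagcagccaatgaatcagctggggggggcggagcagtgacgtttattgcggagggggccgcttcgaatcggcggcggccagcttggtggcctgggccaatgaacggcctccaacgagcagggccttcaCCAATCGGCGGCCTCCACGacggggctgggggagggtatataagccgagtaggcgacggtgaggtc
XBP1: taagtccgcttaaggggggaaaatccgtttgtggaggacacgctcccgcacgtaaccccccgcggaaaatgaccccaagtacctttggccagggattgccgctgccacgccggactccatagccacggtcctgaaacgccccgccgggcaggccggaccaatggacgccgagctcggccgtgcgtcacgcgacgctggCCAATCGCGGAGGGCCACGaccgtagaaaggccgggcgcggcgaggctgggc
ERO1B: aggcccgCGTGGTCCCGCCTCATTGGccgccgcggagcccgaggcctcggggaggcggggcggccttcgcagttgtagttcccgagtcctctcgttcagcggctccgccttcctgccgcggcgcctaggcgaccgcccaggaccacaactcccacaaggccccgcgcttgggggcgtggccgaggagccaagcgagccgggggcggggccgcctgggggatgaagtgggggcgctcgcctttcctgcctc

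No gene passed the test at 12 h after adjustment. The paired fit with limma called 0 of 10717 genes (0%), with a smallest adjusted p of 0.127, and 1434 genes (13.4%) had an unadjusted p under 0.05, of which 610 were higher with CsA and 824 lower. Genes are therefore described by size and by agreement of the pairs, with no test. At least 0.3 on the log2 scale higher in every pair were 56 genes (0.523%), and at least 0.3 lower in every pair were 43 (0.401%). Just inside the limit, the weakest pair was 0.301 higher for NR1H3, a nuclear receptor for oxysterols, and 0.303 lower in size for ESF1, a nucleolar protein. Just outside lay TMEM39A with 0.299 higher and PATL1 with 0.296 lower. A positive mean difference was found in 46.7% of genes, and the median gene differed by -0.01. In RNA of a whole culture, fewer cells with a transcript and less transcript per cell cannot be told apart. With only 2 pairs required, 138, 161 and 147 genes were higher without replicate 1, 2 and 3, and 196, 115 and 162 lower. The count at an unadjusted p under 0.05 was 908 without replicate 2.

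The split between higher and lower genes depended on the scaling. As deposited, 56.6% of these genes were higher. With every array centred on its median the counts were 84 and 28, or 75% higher, and with quantile normalization of the 6 arrays they were 69 and 34, or 67%. The median used for centring differed by -0.012, -0.046 and -0.039 in the pairs. That over all probe sets was higher with CsA in each pair, so the 75% holds for the first median only. Of the 56 higher genes, 56 and 55 were kept under these scalings, and of the 43 lower genes 28 and 33.

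A second form of the limma test, run as an alternative, lets the expected spread of a gene depend on its level and limits the weight of outlying genes. It called 31 genes (0.289%), 27 higher and 4 lower with CsA. CREB3L2, HSPA5, SEC24D and SLC33A1 had an adjusted p of 0.00458 in that limma fit, and PPIB one of 0.00461. The 4 lower genes were TMEM19 (limma adjusted p of 0.0235), DGAT2 (0.0303), USP2 and CENPF (0.0478 each). These calls rest on that form of the test alone.

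**Figure D1:**
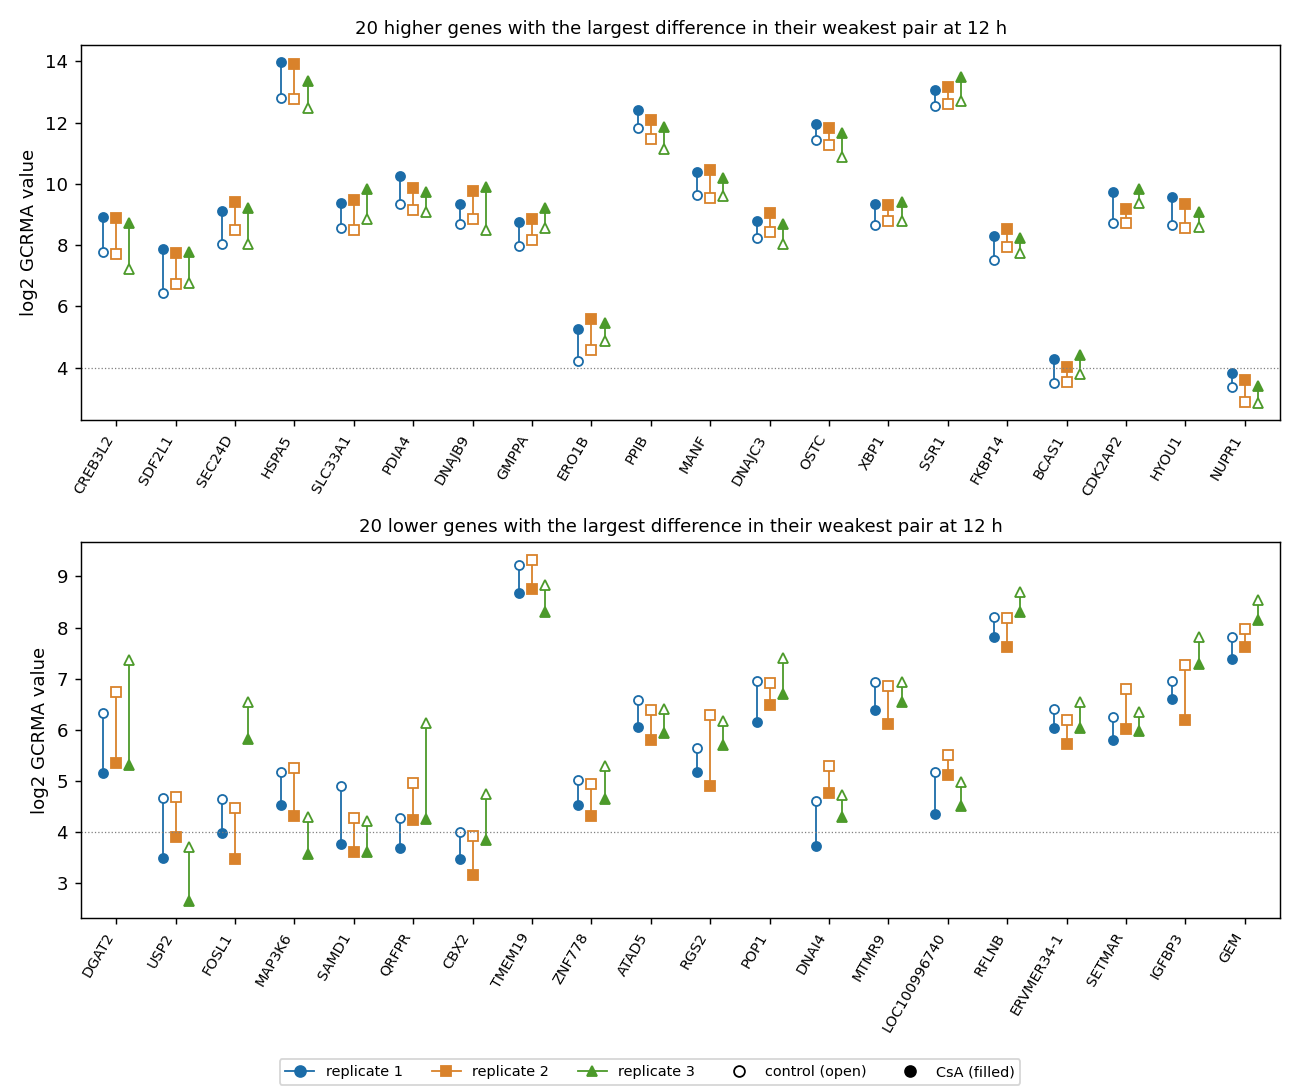
Log2 GCRMA values at 12 h of the 20 higher (top) and 20 lower (bottom) genes with the largest difference in their weakest pair. Open symbols are control arrays, filled symbols CsA arrays, a line joins the 2 arrays of a pair, colours and shapes mark replicates 1 to 3, and the dotted line marks the level of 4. All 3 pairs of each gene go one way, while all arrays of NUPR1 and the CsA arrays of USP2, SAMD1 and CBX2 lie below 4.

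Among regulators stood the higher gene with the largest difference in its weakest pair, CREB3L2, an ER-bound transcription factor cleaved when the secretory pathway is loaded. It measured 8.93, 8.90 and 8.71 with CsA and 7.78, 7.70 and 7.23 in control for replicates 1 to 3. Every CsA array lay above every control array, and the difference was 1.28 ± 0.09 (SE), or 2.42-fold higher (limma adjusted p = 0.127). The array carries 3 probe sets for CREB3L2, and the other 2 did not reach the level of 4, so this gene rests on one. XBP1, the factor made active by IRE1 splicing, measured 9.35, 9.32 and 9.40 with CsA against 8.65, 8.80 and 8.78, a difference of 0.61 ± 0.07. Its other measured probe set differed by 0.00, so the 2 probe sets of XBP1 disagree.

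Most genes of the list of UPR sensors and transcription factors differed less. Beside sensors and ER-bound factors, this list of 17 tested genes holds others such as XBP1 and DDIT3. Of the 17, 13 had a positive difference, 2 (CREB3L2 and XBP1) were at least 0.3 higher in every pair, and the median was 0.13. At an unadjusted p under 0.05, 6 were higher and 1 lower. This list and each one below stand beside all 10717 tested genes, of which 610 were higher and 824 lower at that p. Of all genes 46.7% were positive, 0.523% at least 0.3 higher in every pair and 0.401% at least 0.3 lower. ATF4, the factor of the integrated stress response, measured 12.02, 12.13 and 11.87 with CsA and 11.52, 11.69 and 11.73 in control. Its groups did not overlap, and pair 3 had the smallest difference, 0.15. DDIT3, a stress-induced factor linked to cell death, differed by 0.26 ± 0.06, and EIF2AK3, the sensor PERK, by 0.29. The lower member was ERN1, the sensor IRE1 that splices XBP1, at -0.46.

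Chaperones of the ER lumen held several of the next places. HSPA5 measured 13.99, 13.90 and 13.35 with CsA and 12.79, 12.76 and 12.49 in control, a difference of 1.07 ± 0.09, or 2.1-fold higher (limma adjusted p = 0.164). Replicate 3 had both the lowest CsA and the lowest control value, and no arrays of the groups overlapped. SDF2L1, a small partner of HSPA5 complexes, measured 7.88, 7.73 and 7.77 against 6.45, 6.73 and 6.77, a difference of 1.15 ± 0.11 or 2.21-fold (limma adjusted p = 0.164). DNAJB9, an ER-resident J protein that works with HSPA5, measured 9.36, 9.78 and 9.89 against 8.70, 8.86 and 8.50, with the pairs at 0.66, 0.92 and 1.39. HYOU1, an ER chaperone that exchanges the nucleotide of HSPA5, differed by 0.73 ± 0.10, MANF, a secreted ER protein, by 0.74 ± 0.09 and DNAJC3, another cochaperone, by 0.61 ± 0.06. CRELD2, an ER protein induced by stress, was outside the 20 first genes with 0.76 ± 0.13, because pair 3 gave only 0.39.

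Enzymes of disulfide formation ranged from large differences to none. PDIA4, a disulfide isomerase, differed by 0.90, 0.72 and 0.68 in the 3 pairs, a mean of 0.77 ± 0.07. ERO1B measured 5.27, 5.59 and 5.47 with CsA and 4.21, 4.59 and 4.86 in control, a difference of 0.89 ± 0.11 that was 0.31 in its other measured probe set. ERO1A, the more widely expressed oxidase, differed by 0.13 ± 0.06. Of the 19 tested genes of this list 14 were positive, 2 were at least 0.3 higher in every pair, 6 were higher and 0 lower at an unadjusted p under 0.05, and the median was 0.13. P4HB, the founding isomerase, differed by 0.35 ± 0.06. Several thioredoxin-like members lay near 0, such as TMX3 at 0.02 and TXNDC12 at 0.00.

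The entry gate of the ER had the highest median of any list. Among 13 tested genes of the SEC61 channel, the translocon-associated protein (TRAP) complex and their partners, 11 were positive, 4 were at least 0.3 higher in every pair, and 10 were higher and 1 lower at an unadjusted p under 0.05. The median was 0.28, with 0.26, 0.26 and 0.40 in pairs 1 to 3. SSR1, a TRAP subunit, measured 13.06, 13.17 and 13.50 with CsA against 12.56, 12.62 and 12.71, and 5 further probe sets of it differed by 0.41 to 0.67. SEC61A1, the channel itself, differed by 0.46, 0.44 and 0.46 in the pairs, and SSR2 by 0.41, 0.40 and 0.52. TRAM2 was the lower member, at -0.25. Of 13 genes of the signal recognition particle and the signal peptidase, 11 were positive with a median of 0.06, led by SEC11C, a catalytic subunit of the peptidase, at 0.54 ± 0.10, with 0.15 in its other measured probe set. The ER membrane complex and the tail anchor pathway, which insert other kinds of membrane protein, had 6 of 16 positive and a median of -0.02, which was 0.01 with centred arrays.

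Glycosylation genes were read in 4 lists, and the lists were not tested against each other. Among 17 tested subunits of the oligosaccharyltransferase and the glucosidases that trim the glycan, 15 were positive with a median of 0.14, and 7 were higher and 0 lower at an unadjusted p under 0.05. OSTC, an accessory subunit, measured 11.97, 11.82 and 11.67 with CsA and 11.42, 11.28 and 10.89 in control. The catalytic subunit STT3B differed by 0.33 ± 0.07 and MAGT1, an oxidoreductase of the complex, by 0.35 ± 0.08. Synthesis of the glycan precursor had 13 of 23 positive and a median of 0.03, with GMPPA, a GDP-mannose pyrophosphorylase subunit, as the only member at least 0.3 higher in every pair (0.70 ± 0.06). Synthesis of GPI anchors, another ER pathway, had 6 of 22 positive and a median of -0.05, with PIGW, an acyltransferase of that pathway, at -0.25 ± 0.06. Supply of nucleotide sugars had 11 of 16 positive and a median of 0.05, with UGDH, which makes UDP-glucuronate, at 0.32 ± 0.06 as the member with the largest difference in its weakest pair. SLC35C1, a GDP-fucose transporter, had the highest mean of that list, 0.40, with 0.37, 0.82 and 0.01 in the pairs.

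Transport out of the ER showed one large difference and many small ones. SEC24D, which picks cargo for the COPII coat, measured 9.12, 9.40 and 9.22 with CsA and 8.04, 8.48 and 8.04 in control, a difference of 1.06 ± 0.07 or 2.09-fold (limma adjusted p = 0.127). Its other 2 probe sets differed by 0.16 and 0.21, so the size of the SEC24D difference depends on the probe set. Of 22 tested p24 proteins and cargo receptors, 16 were positive with a median of 0.11, and 9 were higher and 3 lower at an unadjusted p under 0.05. LMAN1, a receptor for glycoproteins, differed by 0.39 ± 0.06 and TMED10, a p24 protein, by 0.36 ± 0.06, both at least 0.3 higher in every pair. Among 34 tethers and SNAREs between ER and Golgi, 24 were positive with a median of 0.10, and 0 were at least 0.3 higher in every pair. SLC33A1, which carries acetyl-CoA into the ER, measured 9.39, 9.48 and 9.82 against 8.56, 8.48 and 8.86, a difference of 0.93 ± 0.07, and its 3 further probe sets differed by 0.24 to 1.04.

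Single genes of other kinds were among the 56. In ER-associated degradation act EDEM1, a mannosidase-like factor that differed by 0.49 ± 0.06, SEL1L, the partner of the ligase HRD1, by 0.53 ± 0.09, and ERLEC1, a lectin, by 0.46 ± 0.07. LPIN1, a phosphatidate phosphatase, differed by 0.41 ± 0.06, while the phospholipid synthesis list that holds it had 14 of 26 negative and a median of -0.04. Enzymes on no list were ACSS2, a cytosolic acetyl-CoA synthetase (0.43 ± 0.06), and LSS, the lanosterol synthase (0.36 ± 0.06). These genes were chosen after their values were seen, and a further probe set of LSS differed by -0.15 and one of SEL1L by -0.01. CDK2AP2, a regulator of the cell cycle kinase CDK2 and one of the 20 leading genes, differed by 1.01, 0.48 and 0.47 in the pairs, and its groups overlapped. BCAS1 and NUPR1 were among the 20 leading genes but lay near background, NUPR1 at a mean of 3.61 with CsA and 3.03 in control. With values below 4 raised to 4, BCAS1 differed by 0.24 and NUPR1 by 0.00.

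**Figure D2:**
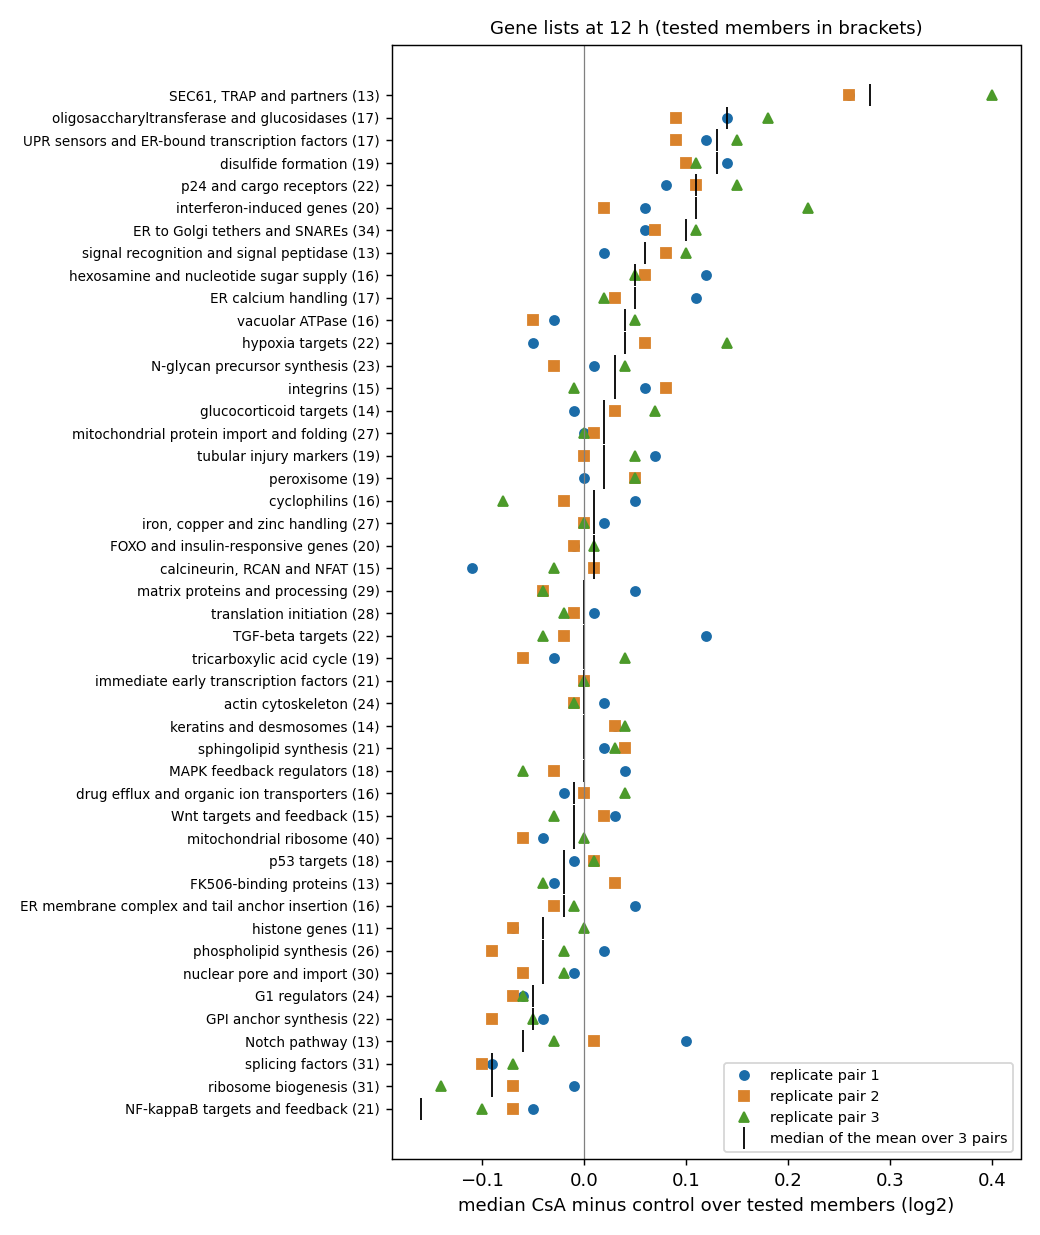
Median difference CsA minus control at 12 h over the tested members of each of 46 gene lists, on the log2 scale. Coloured symbols are the medians within replicate pairs 1 to 3, black bars are medians of the mean over the pairs, and brackets give the number of tested members. SEC61 and TRAP lie highest, at 0.28, and NF-kappaB targets lowest, at -0.16.

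The known targets of the drug were measured next. PPIB measured 12.42, 12.10 and 11.85 with CsA and 11.81, 11.48 and 11.14 in control. Within each pair CsA was higher by 0.61, 0.62 and 0.71, and the groups did not overlap. The difference of 0.65 ± 0.06 is 1.57-fold (limma adjusted p = 0.164), and the other probe set gave 0.69. Of 16 tested cyclophilins 9 were positive, against 46.7% of all genes, with a median of 0.01, and PPIB alone was at least 0.3 higher in every pair. PPIA, the abundant cytosolic cyclophilin, differed by -0.06 ± 0.06, PPIF, that of mitochondria, by -0.09 ± 0.06 and PPIC by 0.07 ± 0.06. No test compared one cyclophilin with another. Among 13 FK506-binding proteins, the other family of such isomerases, 6 were positive with a median of -0.02. FKBP14 was the exception in size, at 8.31, 8.52 and 8.23 with CsA against 7.53, 7.95 and 7.75. FKBP4, a partner of HSP90, differed by -0.23 ± 0.06, FKBP10 by -0.17 ± 0.06 and FKBP11 by -0.19 ± 0.08, each lower in every pair. The other measured probe set of FKBP11 differed by -0.70. A split of this family by place in the cell was not tested.

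Calcineurin, its regulators and NFAT genes had 8 of 15 positive and a median of 0.01, with 1 higher and 1 lower at an unadjusted p under 0.05. Over all 10717 genes 46.7% were positive, and 610 were higher and 824 lower at that p. RCAN1, a calcineurin inhibitor whose gene responds to NFAT, measured 7.16, 7.43 and 7.52 with CsA and 7.32, 7.36 and 7.68 in control. Its groups overlapped, the pairs went both ways, and its other probe set differed by 0.23. Genes of ER calcium handling had 14 of 17 positive and a median of 0.05, led by SELENOK, an ER selenoprotein, at 0.43 ± 0.06, and CALU, a calcium-binding ER protein, at 0.25 ± 0.06.

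The lower gene with the largest difference in its weakest pair was DGAT2, the enzyme of the last step of triglyceride synthesis. It measured 5.16, 5.35 and 5.30 with CsA and 6.33, 6.73 and 7.36 in control. The CsA arrays lay within a narrow range below every control array, and the difference was -1.54 ± 0.18, or 2.91-fold lower (limma adjusted p = 0.24). The other measured probe set of DGAT2 differed by -0.58. DGAT2 was also the one gene lower by at least 1 in every pair, as CREB3L2 was the one higher. SDF2L1 fell just short before rounding, with pairs that round to 1.43, 1.01 and 1.0.

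Other lower genes lay closer to background. USP2, a deubiquitinase, measured 3.49, 3.89 and 2.65 with CsA and 4.66, 4.68 and 3.71 in control, so its groups overlapped while CsA was lower in each pair. Its difference of -1.01 ± 0.09 was -0.45 with values below 4 raised to 4. QRFPR, a receptor for a neuropeptide, differed by -1.07 ± 0.27, with pair 3 at -1.89 and the others at -0.60 and -0.73, and by -0.66 without replicate 3. CBX2, a Polycomb protein, differed by -0.73 ± 0.09, but by -0.25 with that floor, and a different probe set that passes when the level is lowered to 3 gave 0.13. MAP3K6, a stress kinase, differed by -0.77 ± 0.08 and SAMD1, a protein that binds CpG islands, by -0.81 ± 0.12.

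Other lower genes act in signalling and growth. FOSL1, a subunit of AP-1, measured 3.97, 3.46 and 5.81 with CsA and 4.64, 4.46 and 6.54 in control. Replicate 3 was the highest in both groups, and the pairs differed by -0.67, -1.0 and -0.73. RGS2, which turns off G proteins, differed by -0.48, -1.39 and -0.46, and by -0.47 without replicate 2. IGFBP3, which binds insulin-like growth factors, measured 6.60, 6.19 and 7.28 against 6.96, 7.26 and 7.81. ATAD5, which unloads the replication clamp, differed by -0.53 ± 0.06, POP1, an RNase P subunit, by -0.65 ± 0.09 and TMEM19, a membrane protein, by -0.55 ± 0.06. The groups of these last 3 did not overlap. The other ranked genes, ZNF778, DNAI4, MTMR9, LOC100996740, RFLNB, ERVMER34-1, SETMAR and GEM, differed by between -0.61 and -0.39. Further probe sets differed by -0.20 to -0.03 for DNAI4, by -0.28 to -0.09 for MTMR9 and by -0.24 for RFLNB.

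Of the 46 lists, 7 had a median of at least 0.1, all positive in every pair, and 1 had a median of -0.1 or below. Those 8 kept their sign under every alternative of level, scaling, probe set or replicate, but 29 of 47 lists, the epithelial markers included, changed sign or reached 0 under at least 1. The epithelial markers were higher with CsA beside the ER lists, with 5 of 5 positive, a median of 0.20 and 0.24, 0.09 and 0.35 in the pairs. Their mean level was 11.42, 11.42 and 9.74 with CsA and 11.18, 11.34 and 9.49 in control, and its part in the lists was not tested. The low list was NF-kappaB targets and feedback genes, with 16 of 21 negative, a median of -0.16 over the mean differences, medians of -0.05, -0.07 and -0.10 within the pairs, and 0 higher and 6 lower at an unadjusted p under 0.05. CCL2, a chemokine for monocytes, measured 4.80, 5.37 and 4.91 with CsA and 5.15, 6.08 and 5.69 in control, and was the only member at least 0.3 lower in every pair. NFKB1, a subunit of the factor, differed by -0.30 ± 0.08 and IL6, a cytokine, by -0.28 ± 0.08. IL6 was at 11.85 and 12.17 in replicate 3 and between 3.95 and 4.65 in the others, so it shows how far replicate 3 stood from them. The list's median was -0.08 without replicate 3. Interferon-induced genes had 16 of 20 positive and a median of 0.11, with medians of 0.06, 0.02 and 0.22 within the pairs. At least 0.3 higher in every pair were 0 of them, and 3 were higher and 1 lower at an unadjusted p under 0.05. IFIT2 was at 0.29, 0.12 and 0.66 in the pairs and 0.18 in its other measured probe set.

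Growth lists had medians below 0 by little. The median used to centre the arrays differed by -0.012, -0.046 and -0.039 in the pairs. The median over all probe sets was instead higher with CsA in each pair, at 2.895, 2.864 and 2.918 against 2.866, 2.858 and 2.882. Ribosome biogenesis had 24 of 31 negative (median -0.09), splicing factors 24 of 31 (-0.09), nuclear pore genes 23 of 30 (-0.04), histone genes 10 of 11 (-0.04) and G1 regulators 16 of 24 (-0.05). With the arrays centred by the first of these medians, the 5 lists were at -0.06, -0.06, -0.01, -0.01 and -0.02. In the G1 list 0 were higher and 6 lower at an unadjusted p under 0.05, against 610 higher and 824 lower of all 10717 genes. Among the 6 were CCNE1 and CCNE2, the cyclins of S phase entry, at -0.27 ± 0.07 and -0.24 ± 0.07. E2F3, their activator, was another, at -0.28 ± 0.06, and its other measured probe set differed by -0.01. The other lists, such as matrix, actin, mitochondrial ribosome and TGF-beta targets, had medians within -0.06 and 0.04. Injury markers had a median of 0.02: HAVCR1, the tubular marker KIM-1, differed by 0.03 ± 0.07 and CLU, a secreted chaperone, by 0.15 ± 0.08, with its other probe sets between -0.15 and 0.06. CDKN1A, the p21 inhibitor, differed by 0.05 ± 0.06.

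**Figure D3:**
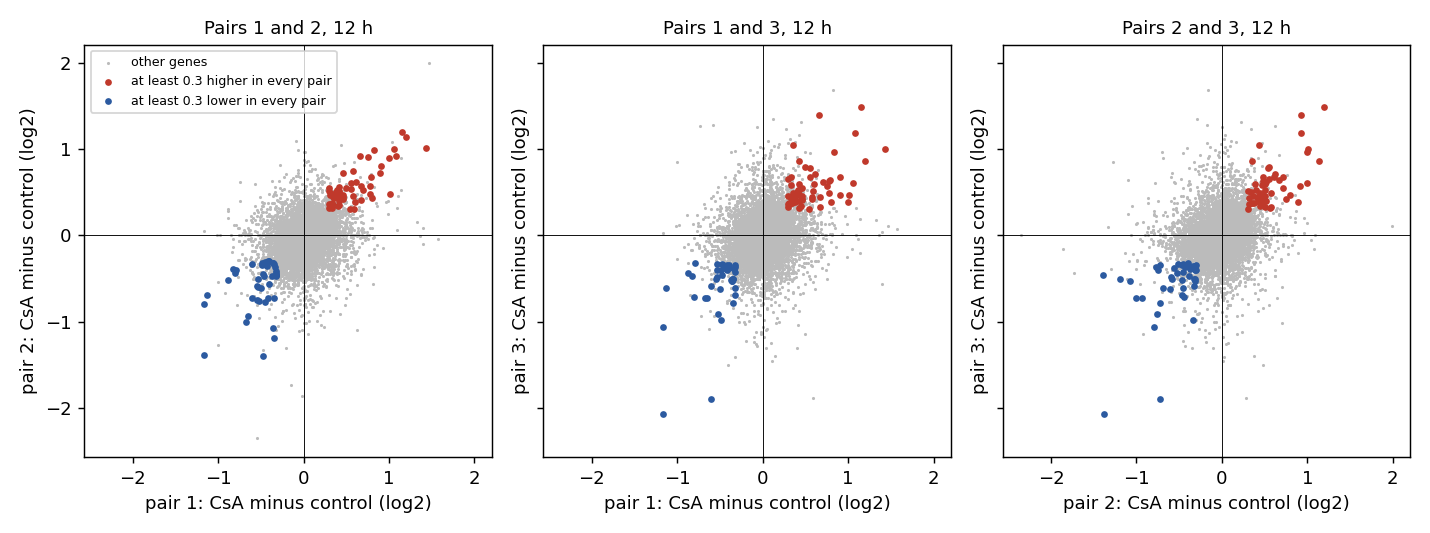
Difference CsA minus control at 12 h of each of 10717 genes in one pair against another, on the log2 scale. Red points are the 56 genes at least 0.3 higher in every pair, blue points the 43 at least 0.3 lower, grey points the rest. The grey cloud is wide beside the coloured points, with correlations over genes of 0.287, 0.206 and 0.241.

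The pairs agreed weakly over all genes. The correlation of the differences over the 10717 genes, which share arrays and are not independent replicates, was 0.287 for pairs 1 and 2, 0.206 for pairs 1 and 3 and 0.241 for pairs 2 and 3. The SD of the differences over genes was 0.212, 0.217 and 0.243. One sign in all 3 pairs was found for 4235 genes, 2027 of them higher and 2208 lower. Of the 56 higher genes 34 had groups that did not overlap, and of the 43 lower genes 18. Over all 10717 genes, 349 were higher and 332 lower without overlap. The 56 and 43 genes were chosen by the pairs of these same arrays, which favours groups without overlap.

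The promoters of these genes were compared with those of all genes. A RefSeq promoter was matched to 8883 of 10717 tested genes. The exact ERSE was found in 13 of these (0.146%). It was found in 5 of the 47 matched genes among the 56 higher (10.6%) and in 0 of the 30 matched among the 43 lower. With at least 0.2 in every pair it was 8 of 154 (5.19%), and with at least 0.5 it was 3 of 14 (21.4%). The 5 genes were HSPA5, ERO1B, CRELD2, XBP1 and TRIM5, a restriction factor of the innate response that is no ER protein.

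Read from the sequence side, the 13 genes with the element had a median difference of 0.33, and 10 were positive. Beside the 5, HSP90B1, the HSP90 of the ER, differed by 0.38 ± 0.08, and SERP1 and CANX by 0.33 ± 0.06 each, with every pair positive. EIF2A, an initiation factor, differed by 0.25 ± 0.06. CALR, the lectin chaperone of the lumen, differed by 0.36 and 0.28 in pairs 1 and 2 and by -0.22 in pair 3. The other 3 lay near 0, TMEM120A at 0.00, ALG12, a mannosyltransferase, at -0.01, and FICD, which modifies HSPA5, at -0.06.

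Other elements were rarer among the higher genes. ERSE-II was searched as ATTGG, any base, then CCACG, the UPR element (UPRE) as TGACG followed directly by TGG, and the amino acid response element as TTGCA followed directly by TCA, all on both strands. ERSE-II stood in 11 promoters (0.124%) and in 2 of the 47 (4.26%), SDF2L1 and HYOU1. The UPRE stood in 70 (0.788%) and in 1 of the 47 (2.13%), HYOU1, where it overlaps one of 2 copies of ERSE-II. The amino acid response element stood in 34 (0.383%) and in 0 of the 47. The last bases of ERSE-II and the UPRE share letters with the ERSE, so the counts are not independent. A match is a description of the sequence and does not show that a factor binds.

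**Figure D4:**
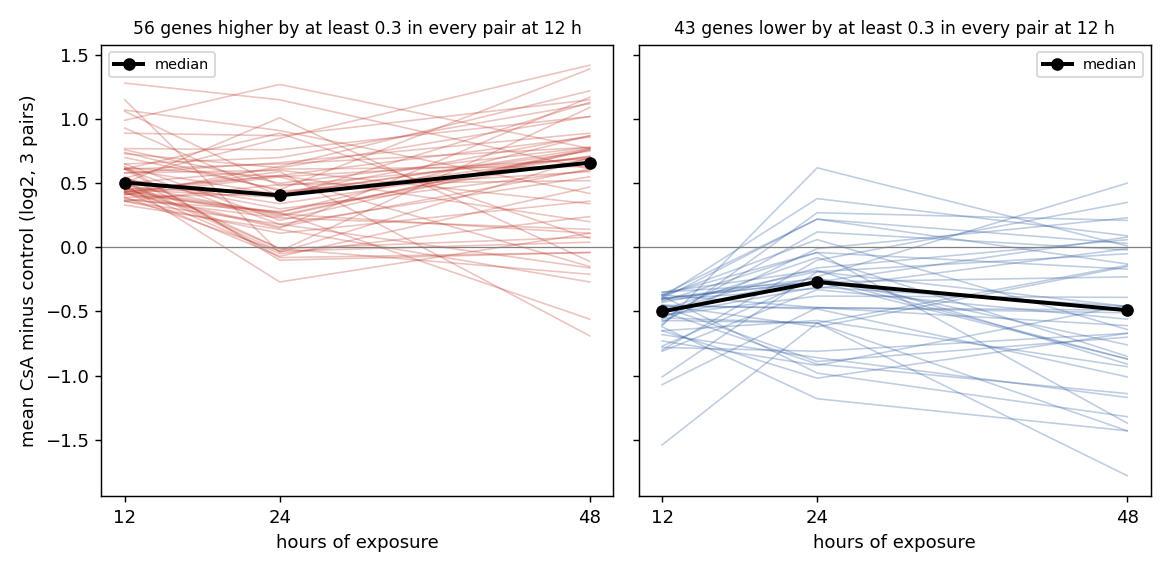
Mean difference CsA minus control over 3 pairs at 12, 24 and 48 h for the 56 genes higher (left) and the 43 genes lower (right) by at least 0.3 in every pair at 12 h, on the log2 scale. Thin lines are genes, the black line is their median. The medians at 24 and 48 h are 0.40 and 0.66 on the left and -0.27 and -0.49 on the right.

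The later arrays, which share no sample with those of 12 h, were then read for the genes chosen at 12 h. Of the 56 higher genes, 41 were higher in every pair at 24 h and 41 at 48 h, with medians of 0.40 and 0.66. Over all genes 2235 (20.9%) and 2686 (25.1%) were. Of the 43 lower genes, 25 were lower in every pair at 24 h and 27 at 48 h, with medians of -0.27 and -0.49. Over all genes 2391 (22.3%) and 2741 (25.6%) were.

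Single genes took different courses. SDF2L1 differed by 1.15 at 12 h, by 0.01, 0.00 and -0.14 in the pairs of 24 h, and by 0.70 at 48 h. The change of SDF2L1 from 12 to 24 h did not pass the test of the difference (limma adjusted p = 0.525). XBP1 differed by 0.61, 0.89 and 0.07 at the 3 times, and DGAT2 by -1.54, -0.59 and -1.78, with 24 h pairs of DGAT2 at -0.38, 0.83 and -2.21. PPIB differed by 0.65, 0.70 and 1.12, and DDIT3 by 0.26, 1.93 and 0.28.

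The effect of CsA was tested for a difference between times on the 9 within-pair differences. That fit held a term for time only and took the 9 pairs as independent, although the same replicate numbers recur at each time. Between 12 and 24 h limma called 0 genes (0%), with 831 at an unadjusted p under 0.05 and a smallest adjusted p of 0.0979. Between 12 and 48 h it called 727 (6.78%), 254 with a larger value at 48 h and 473 with a smaller one. CDKN1A differed by 0.05 at 12 h and 1.01 at 48 h (limma adjusted p of the difference 0.00908), CCNE2 by -0.24 and -1.70 (0.0277), and SEC11C by 0.54 and 1.42 (0.0214). The other measured probe set of SEC11C differed by 0.15 at 12 h. ID2, an inhibitor of transcription factors, differed by 0.31 at 12 h and -0.79 at 48 h (0.00786), and its other measured probe set by 0.15 at 12 h. CCNE2, SEC11C and ID2 were named by their values at 12 h, which enter this test too. The count of 727 depended on the fit and the replicates. It was 3 and 4 on all 18 arrays with and without the replicate block, and 63, 8 and 1 without replicate 1, 2 and 3.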

How the data were processed

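The study measured RNA of HK-2 cells on Affymetrix arrays. The authors' deposited values are log2 values made with GCRMA, per the submitters' processing notes, which give no version. The log base was taken from the range of the values, and no source used here says which arrays shared a normalization. GCRMA compresses differences near background. The number of arrays limits the precision. At 12 h the array medians over all probe sets lay between 2.858 and 2.918, and 38.26% to 38.75% of probe sets reached 4.

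Of 54675 probe sets, the platform annotation gave 41091 a single gene symbol and 1801 several, while 62 were controls of the array and 11721 had no name here. Symbols were checked against RefSeq by gene identifier, which changed 0, and 54 had no match. Tests used probe sets with 1 symbol and a highest group mean of at least 4, the brightest per gene over all arrays. The highest mean was taken over all 6 groups, so a gene could pass at 24 or 48 h alone. These steps left 10717 genes. CsA was compared with control with limma 3.58.1 in R 4.3.3 on the 6 arrays of 12 h with the replicate number as a block, with Benjamini-Hochberg adjustment and a threshold of 0.05. Errors are standard errors of that fit. The scripts were tested on simulated data. Tables were made with pandas 2.3.3 in Python 3.11.15 and figures with matplotlib 3.10.9.

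Replicate numbers pair the arrays here because of the data, since the labels do not say so. After the group means were removed, arrays with one number correlated at 0.822, 0.857 and 0.942, against 0.732 and 0.715 between replicates 1 and 2, so the numbers tell these 2 apart only weakly.

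The comparison, the 46 gene lists and the tests were chosen with earlier results of these data known. Named genes are the 20 higher and 20 lower with the largest difference in their weakest pair, the 3 leading members of each list in the direction of its median, and 10 preset genes. Other genes were named after their values were seen. Alternatives changed the fit, level filter, scaling, floor, probe set, size and replicates.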

Additional observations from a re-analysis of the deposited data

Results flagged for a closer look

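Among the genes named, the effect of CsA at 48 h minus that at 12 h passed the limma test of the difference on the 9 within-pair differences for 18 of 177 (10.2%), against 6.78% of all genes tested. Of the 18, 16 were named by their values at 12 h, which enter this test too, so a value at 48 h nearer to 0 or of the opposite sign is favoured by that choice. CDKN1A and HAVCR1 were not named in that way. No explanation was tested, and the number of genes called in this comparison fell from 727 to 63, 8 and 1 without replicate 1, 2 and 3. Lower at 48 h than at 12 h were genes of cell cycle entry, with CCNE1 at -0.27 and -1.30 (limma adjusted p 0.0365) and CCNE2 at -0.24 and -1.70 (0.0277), and the transcriptional regulators ID1 at 0.38 and -1.02 (0.0145) and ID2 at 0.31 and -0.79 (0.00786). The same direction held for the metallothioneins MT1M at 0.15 and -0.71 (limma adjusted p 0.00893) and MT2A at 0.07 and -0.40 (0.033), and for the tubular genes HAVCR1 at 0.03 and -0.68 (0.0256) and SLC3A1, a cystine transporter subunit, at -0.33 and -1.37 (0.0316). It held for ITGA2, a collagen receptor subunit, at 0.17 and -1.07 (limma adjusted p 0.0359), GLUL, the glutamine synthetase, at 0.13 and -0.49 (0.0313), PPIL1, a cyclophilin of the spliceosome, at 0.14 and -0.36 (0.0283), MRPS25, a mitochondrial ribosomal protein, at -0.27 and -0.73 (0.0353, while its 2 further probe sets differed by 0.08 and 0.33 at 12 h), and BCAS1 at 0.63 and -0.04 (0.015). Higher at 48 h were CDKN1A at 0.05 and 1.01 (limma adjusted p 0.00908), SEC11C at 0.54 and 1.42 (0.0214, with 0.15 at 12 h in its other measured probe set), FOSL1 at -0.80 and 0.35 (0.0488), GEM, a small GTPase, at -0.39 and 0.09 (0.0446), and ZNF778, a zinc finger protein, at -0.58 and 0.23 (0.0205).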

How the results depend on the processing

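The count of genes called at 12 h was 0 under every alternative but the variance prior with trend and robust, where it was 31. The 1434 genes at an unadjusted p under 0.05 became 190 without the replicate block, 259 and 98 on all 18 arrays with and without the block, 835 with the pairs of all times in one fit, 2189 with no level filter and 908 to 1246 with a replicate left out. The 56 higher genes became 181 at a size of 0.2, 15 at 0.5 and 138 to 161 with a replicate left out, and the 43 lower became 28 with centred arrays, 191, 8 and 115 to 196. The 727 genes whose effect differed between 12 and 48 h became 3 and 4 on all 18 arrays with and without the replicate block and 1 to 63 with a replicate left out. Named genes moved by less than 1 SD of their pairs in 1836 of 1937 values under alternatives, 28 of the 177 changed sign or reached 0 under at least 1, and for the 40 ranked genes 24 of 434 values moved by more than 1 SD and 20 by more than 1.5 times. With the median of all probe sets of a gene, dim ones included, CREB3L2 differed by 0.01, MAP3K6 by 0.02, SETMAR by 0.02, USP2 by -0.06, CBX2 by -0.07, DNAI4 by -0.12, MTMR9 by -0.28, SEC24D by 0.27 and XBP1 by 0.30. Of the 56 higher genes 6 had a control mean below 4, and of the 43 lower genes 3 had a CsA mean below 4. With the level filter on the groups of 12 h alone, the higher and lower counts were 55 and 43. With values below 4 raised to 4 they were 50 and 38, and SAMD1 differed by -0.47. Values near 4 on this scale limit the size of a difference.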
